A study of Mus musculus with 9 samples.

Results

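The genes described here are 43 components of the bone morphogenetic protein (BMP) and transforming growth factor beta (TGF-beta) pathways, chosen by symbol out of 37411 genes in the count table. All 43 were found there. They comprise 8 ligands, 9 receptors, 3 coreceptors, 6 receptor-activated and common Smads, 4 inhibitory Smads and ubiquitin ligases, 4 nuclear corepressors, 2 membrane inhibitors, 5 secreted antagonists and 2 latent TGF-beta binding proteins. They were measured by RNA-Seq in GT1-7-OX1 cells treated with 200 nM orexin A (OxA) for 8 h, with 200 nM OxA for 3 h, or with water as vehicle for 8 h, with 3 replicate cultures each. The vehicle thus matches the 8 h treatment in time, while the 3 h cultures also differ from vehicle in their hours in fresh medium, and these differences cannot be told apart. GT1-7 is a mouse line of hypothalamic neurons derived from a hypothalamic tumour driven by SV40 T antigen under the gonadotropin-releasing hormone promoter. All 9 cultures carry a lentiviral human OX1 orexin receptor together with GFP, so the receptor is present in vehicle cultures too. Of cells given various virus volumes, those with the highest GFP and little toxicity under the microscope were expanded. The procedure was repeated for each replicate, but separate cell stocks are not named, so p-values measure the spread between these samples.

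In both branches of the pathway a dimeric ligand joins type II and type I receptor kinases, and the type I receptor then phosphorylates receptor-activated Smads. Smad1, Smad5 and Smad9 serve the BMP branch, Smad2 and Smad3 the TGF-beta and activin branch, and Smad4 is the partner that all of them share in the nucleus. The pathway is held back at every level, by secreted antagonists that bind ligands, by decoy receptors, by inhibitory Smads and ubiquitin ligases, and by nuclear corepressors, and several of these inhibitors are themselves known targets of the pathway.

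Libraries held 16217786 to 20445364 assigned reads in the 8 h cultures, 16487142 to 17877485 in the 3 h cultures and 17293093 to 18168541 in vehicle. All 6 neuronal markers, *Gnrh1* among them, were at 2 TPM or more (a level scaled by gene length and library size) in every group. Together they summed to 3100 to 3280 TPM at 8 h, 3950 to 4180 TPM at 3 h and 3810 to 4390 TPM in vehicle, lowest in the 8 h cultures. The paper reports very high *Gnrh1* expression in vehicle, so this sum mainly follows that gene. At 8 h *Gnrh1* (log2 fold change over vehicle -0.345) and *Map2* (-0.44) were called lower. *Eno2* (-0.12), *Th* (-0.02), *Dlg4* (0.007) and *Tubb3* (-0.08) had no call. Of the astrocyte markers 0 of 4 reached 2 TPM. Their summed level was 0.943 to 1.35 TPM at 8 h, 0.814 to 1.55 TPM at 3 h and 1.04 to 1.75 TPM in vehicle. Microglial markers summed to 5.36 to 6.62 TPM at 8 h, 4.8 to 5.1 TPM at 3 h and 3.43 to 3.78 TPM in vehicle, with *Csf1r* as the 1 marker of 4 at that level. Endothelial markers summed to 6.06 to 6.15 TPM at 8 h, 8.14 to 8.75 TPM at 3 h and 7.62 to 8.48 TPM in vehicle, with 1 marker of 5 at that level. These markers did not move together. The log2 fold change over vehicle at 8 h was -0.47 for *Kdr*, 1.335 for *Cdh5* and -0.03 for *Pecam1*, and *Tek* and *Cldn5* were not tested. Fibroblast and pericyte markers summed to 27 to 32 TPM at 8 h, 27.1 to 27.5 TPM at 3 h and 27.7 to 33.4 TPM in vehicle, with *Col1a2* as the 1 marker of 5 at that level. Oligodendrocyte markers summed to 2.05 to 2.51 TPM at 8 h, 1.11 to 1.78 TPM at 3 h and 2.37 to 2.76 TPM in vehicle. The part of all these markers in the results below was not tested. In bulk RNA, fewer cells of a type and less RNA per cell cannot be told apart.

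In vehicle, 28 of the 43 members had a mean of 2 TPM or more and 24 of 10 TPM or more, while 11 were under 0.5 TPM. The highest levels were those of the common Smad, a coreceptor, a type I receptor, a receptor-activated Smad and a corepressor. *Smad4* averaged 96.2 ± 3.46 TPM (SD, n = 3), the TGF-beta coreceptor *Tgfbr3* 86.6 ± 8.18, the BMP type I receptor *Bmpr1a* 85.4 ± 4.76, *Smad2* 72.3 and the corepressor *Ski* 64.5 TPM. The ranges of *Smad4*, *Tgfbr3* and *Bmpr1a* overlapped, so their order is not resolved, while *Smad2* lay below *Bmpr1a* and above *Ski* in every vehicle culture. Among the 42 pairs of neighbours in the order, 27 overlapped. The BMP branch was represented by *Smad5* (46.3 TPM) above *Smad1* (16.0 TPM) and *Smad9* (11.1 TPM). Among the 8 member ligands, levels were low apart from *Bmp2* (21.4 TPM) and the activin beta B subunit *Inhbb* (5.47 TPM), and all 3 TGF-beta ligands were below 0.5 TPM. Among the member type I receptors *Bmpr1a* lay far above *Tgfbr1*, *Acvr1* and *Acvr1b*, at 17.7, 16.4 and 15.2 TPM, and *Bmpr1b* was the lowest of them at 0.140 TPM.

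**Figure D1:**
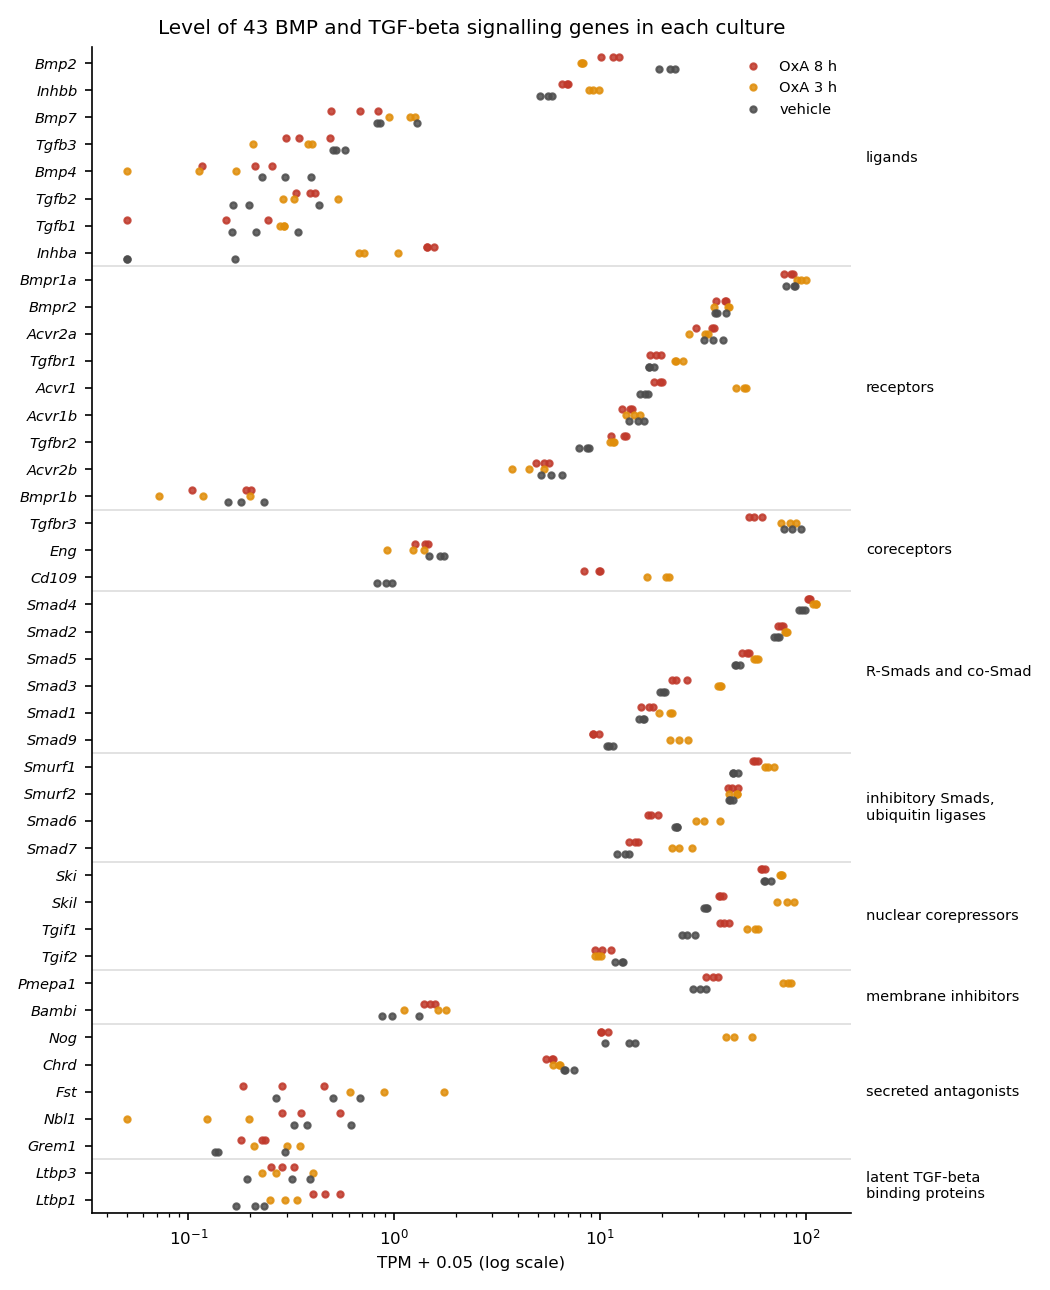
Level of each of the 43 members in each culture, as TPM plus 0.05 on a log axis (horizontal), by role and by the vehicle mean (vertical). Points are single cultures, 3 per group, and the 28 members at 2 TPM or more in vehicle lie to the right of those with low levels, with *Cd109* and *Inhba* further left in vehicle than after OxA.

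Against vehicle, 18 of 37 tested members (48.6%) changed at 8 h, 15 higher and 3 lower, where 28.4% of all 15407 genes tested were called, 15.3% higher and 13.1% lower. At 3 h, 25 of 37 tested members (67.6%) changed, 23 higher and 2 lower, against 38.9% of 15352 genes called, 20.2% higher and 18.7% lower. With upper-quartile scaling the split of all genes at 3 h was 2426 higher and 3719 lower in place of 3104 and 2869, and that of the members 22 and 2. The same scaling gave 1994 higher and 2515 lower at 8 h in place of 2359 and 2018 (members 14 and 5), and 2518 higher and 1887 lower for 8 h against 3 h in place of 2096 and 2181 (members 2 and 20). The median log2FC (log2 fold change) of the tested members was 0.12 at 8 h, beside -0.00812 over all genes, and 0.48 at 3 h, beside -0.00403 over all genes. Of the called members, 3 rose 2-fold or more at 8 h, and at 3 h 9 rose and 1 fell by that much. Among these rises, *Inhba* and *Ltbp1* at 8 h and *Fst* at 3 h passed the low-count filter only through the OxA cultures. Compared directly, 8 h against 3 h, 22 of 36 tested members (61.1%) differed, 2 higher and 20 lower at 8 h, beside 28.0% of 15278 genes called, 13.7% higher and 14.3% lower. Calls required an adjusted p under 0.05 in edgeR's quasi-likelihood test, with adjustment over all genes tested. The 2 groups did not overlap for 25 of the 37 members at 8 h, 27 of 37 at 3 h and 25 of 36 for 8 h against 3 h, where 41.1%, 47.9% and 40.5% of all genes tested had no overlap. Both comparisons with vehicle use the same 3 vehicle cultures, and 8 h against 3 h uses the same OxA cultures. The members were chosen with earlier results of these data known, so their shares describe the list and are no test of it.

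**Figure D2:**
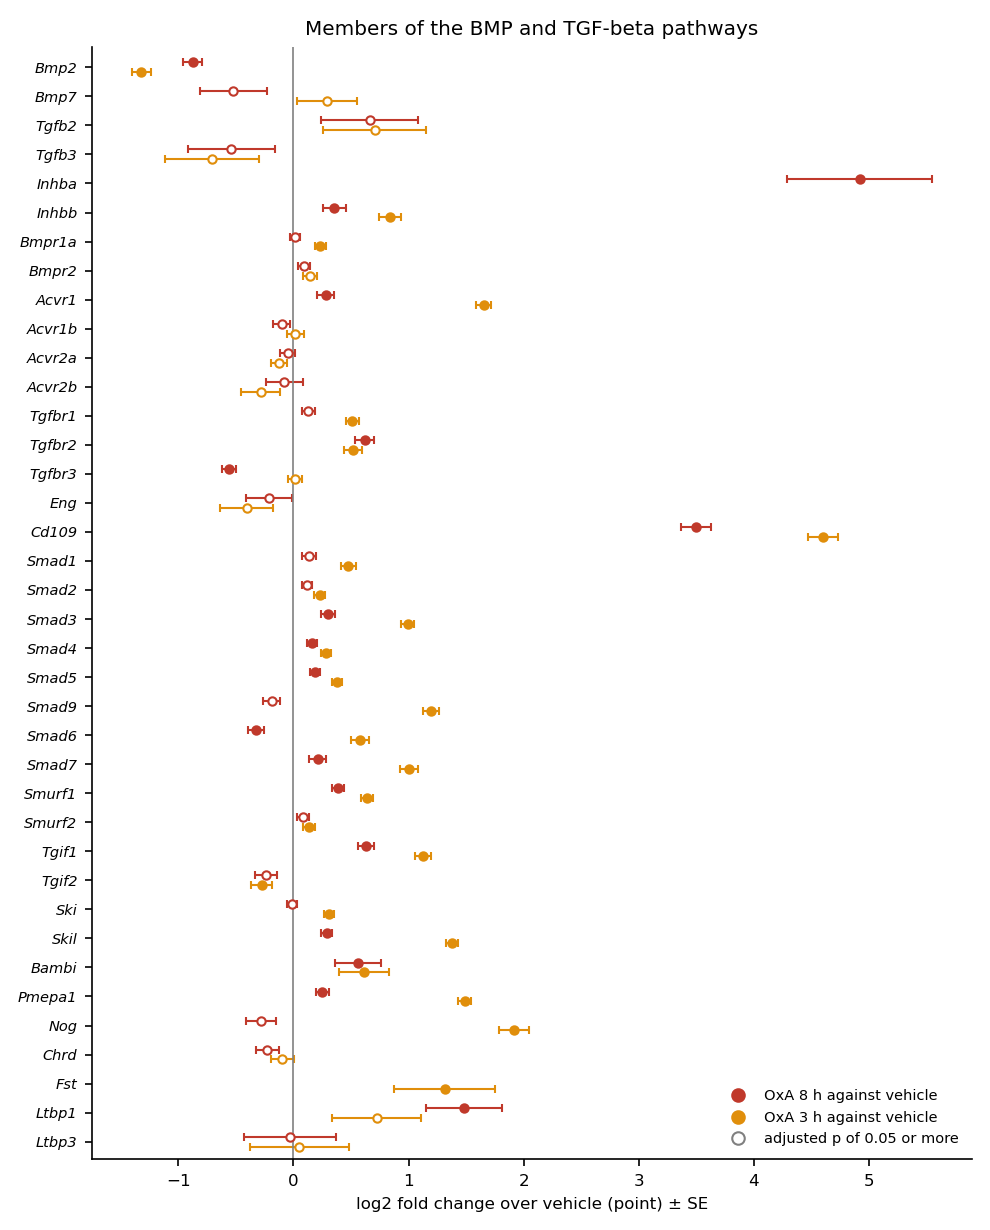
Log2 fold change over vehicle (horizontal, point ± SE) of each tested member (vertical, by role), OxA 8 h above OxA 3 h, with filled points at an adjusted p under 0.05. The 3 h points lie to the right of the 8 h points for *Acvr1*, *Smad9*, *Skil*, *Pmepa1* and *Nog*, and both *Bmp2* points lie left of 0. The *Inhba* point at 8 h is a fitted value that depends on the prior count, since vehicle held 2 reads.

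The promoters of 30 of the 43 members were found by symbol in a RefSeq table (GRCm38.p6) of windows that run from 250 bases before to 50 bases after a start site. Those of *Inhba*, *Acvr1*, *Ltbp1* and *Smad9* are shown because these were the members with the largest called changes over vehicle among the 30. For *Inhba* and *Ltbp1* that choice rests on comparisons they entered only through OxA cultures. Exact matches were searched on both strands for GGCGCC and GGAGCC (GC-rich Smad elements), GTCTAGAC (the palindromic Smad element), TGACGTCA (the cyclic AMP response element), TGACTCA (the AP-1 element) and GCGTGGGCG and GCGGGGGCG (EGR elements). Capitals mark the matches, and the windows are chr13:16011601-16011900, plus strand for *Inhba*, chr2:58566779-58567078, minus strand for *Acvr1*, chr17:75005279-75005578, plus strand for *Ltbp1* and chr3:54755332-54755631, plus strand for *Smad9*.
Inhba: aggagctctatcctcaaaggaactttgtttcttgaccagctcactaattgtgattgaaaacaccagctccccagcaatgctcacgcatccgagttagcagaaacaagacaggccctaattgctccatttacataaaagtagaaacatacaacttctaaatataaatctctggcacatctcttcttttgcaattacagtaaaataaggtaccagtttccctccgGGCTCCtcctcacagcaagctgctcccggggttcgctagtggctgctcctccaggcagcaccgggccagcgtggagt
Acvr1: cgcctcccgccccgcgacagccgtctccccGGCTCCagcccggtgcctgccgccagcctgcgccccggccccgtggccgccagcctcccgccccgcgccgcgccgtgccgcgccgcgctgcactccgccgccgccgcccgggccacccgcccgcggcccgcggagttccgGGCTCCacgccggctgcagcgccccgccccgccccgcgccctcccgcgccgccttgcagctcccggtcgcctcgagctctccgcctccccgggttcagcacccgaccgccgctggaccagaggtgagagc
Ltbp1: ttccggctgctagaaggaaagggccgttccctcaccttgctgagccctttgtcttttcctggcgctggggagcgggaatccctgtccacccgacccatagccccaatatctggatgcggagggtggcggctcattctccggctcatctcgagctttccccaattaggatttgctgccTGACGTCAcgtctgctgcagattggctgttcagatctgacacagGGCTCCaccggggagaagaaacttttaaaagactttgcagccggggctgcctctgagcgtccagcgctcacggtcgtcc
Smad9: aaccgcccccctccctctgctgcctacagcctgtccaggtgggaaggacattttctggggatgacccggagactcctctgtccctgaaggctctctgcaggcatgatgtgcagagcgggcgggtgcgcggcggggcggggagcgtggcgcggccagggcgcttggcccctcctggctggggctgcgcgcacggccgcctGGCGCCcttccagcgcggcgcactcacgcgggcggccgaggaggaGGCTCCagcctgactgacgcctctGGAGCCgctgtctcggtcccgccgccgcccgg

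All 4 windows held GGAGCC or its reverse complement, at -27 in *Inhba*, at -220 and -80 in *Acvr1*, at -29 in *Ltbp1* and at -6 and 19 in *Smad9*, counted from the start site to the leftmost base of the match. *Smad9* also held GGCGCC at -51, and *Ltbp1* held the cyclic AMP response element at -73. Another *Ltbp1* window, at a start site further along the gene, held none of the motifs. Over all members, GGAGCC was in 21 of 40 windows (52.5%) and GGCGCC in 12 of 40 (30.0%), against 30.8% and 11.9% of all 32851 windows in the table. The members' windows were richer in G and C, with a median of 65.7% against 52.7%, and the part of base composition in these shares was not tested. The other motifs were rare. The palindromic Smad element was in the *Smad6* window (0.213% of all windows), AP-1 in that of *Ltbp3* (5.2%), GCGTGGGCG in those of *Tgfb1* and *Tgif2* (0.612%) and GCGGGGGCG in that of *Tgfbr1* (2.91%), while 1.79% of all windows held the cyclic AMP response element. A match describes letters in the window and not binding.

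Normalized counts below are read counts scaled for depth to a common library size by TMM (trimmed mean of M values). Among the ligands, *Bmp2* fell and the activin subunits *Inhba* and *Inhbb* rose. BMP2 activates Smad1, Smad5 and Smad9 through BMP receptors, while *Inhba* and *Inhbb* encode the beta subunits of activins, which act through Smad2 and Smad3. *Bmp2* had 299, 356 and 339 normalized counts in the 8 h cultures, 247, 236 and 238 in the 3 h cultures and 635, 635 and 550.4 in vehicle (ENSMUSG00000027358.6, chr2:133552159-133562885, plus strand). No OxA culture reached the lowest vehicle culture, and the 3 h cultures lay below the 8 h cultures. The log2FC of *Bmp2* was -0.87 (SE 0.083, adjusted p = 2.27e-08) at 8 h and -1.32 (SE 0.082, adjusted p = 7.21e-12) at 3 h, so the level was 1.83-fold lower at 8 h and 2.5-fold lower at 3 h than in vehicle. Between the OxA groups it was 1.37-fold higher at 8 h (log2FC 0.45, SE 0.093, adjusted p = 0.000858).

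*Inhba* (ENSMUSG00000041324.14, chr13:16011851-16031621, plus strand), whose promoter is printed above, had 26, 25 and 22 reads in the 8 h cultures, 15, 10 and 10 in the 3 h cultures and 2, 0 and 0 in vehicle. Gene models on the opposite strand, *B230303A05Rik* and *Gm48444*, overlap *Inhba* over 11573 and 6240 bases and are not in the count table. Whether reads from them were counted for *Inhba* was not tested. *Inhba* was all but absent from vehicle cultures and present in each OxA culture, at a level of 1.43 TPM at 8 h and 0.761 TPM at 3 h. Summed over cultures and corrected for depth, 73 reads at 8 h against 2 in vehicle give a ratio of 35.5 (95% interval 9.49 to 299), and 35 reads at 3 h against 2 a ratio of 19.1 (4.91 to 164), with intervals that cover counting error only. In the 8 h comparison the adjusted p was 9.58e-07, and *Inhba* entered that test only through the 8 h cultures. The low-count filter kept it out of the 3 h comparison. Between 8 h and 3 h, a test it likewise entered only through the 8 h cultures, the log2FC was 0.88 (SE 0.32, adjusted p = 0.0417), and without 8 h replicate 1, 8 h replicate 2, 8 h replicate 3, 3 h replicate 2 or 3 h replicate 3 it was 0.74 to 0.91 with an adjusted p of 0.0811 to 0.152.

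*Inhbb* had normalized counts of 232, 241 and 239.9 in the OxA 8 h cultures, 333, 311 and 345 in the OxA 3 h cultures and 176, 183 and 198 in the vehicle cultures. The 3 groups did not overlap, with the highest values at 3 h. Its log2FC was 0.35 (SE 0.1, adjusted p = 0.00938) at 8 h, 0.84 (SE 0.096, adjusted p = 1.87e-07) at 3 h and -0.48 (SE 0.089, adjusted p = 0.000295) for 8 h against 3 h. For the 8 h change, without vehicle replicate 1 it was 0.32 with an adjusted p of 0.052. *Bmp7*, a BMP ligand of low level here, had 19.4, 23.4 and 13.4 normalized counts at 8 h, 35.8, 27.1 and 36.6 at 3 h and 23.1, 35.4 and 23.8 in vehicle. Its OxA groups did not overlap each other, while each overlapped vehicle. It differed from vehicle at neither time (log2FC -0.52, SE 0.29, adjusted p = 0.182 at 8 h and log2FC 0.29, SE 0.26, adjusted p = 0.406 at 3 h) and was lower at 8 h than at 3 h (log2FC -0.81, SE 0.27, adjusted p = 0.0311), but without 8 h replicate 1, 8 h replicate 3, 3 h replicate 1 or 3 h replicate 3 it was -0.65 to -0.82 with an adjusted p of 0.0621 to 0.116. *Tgfb2* and *Tgfb3*, the TGF-beta ligands that passed the low-count filter, had few reads and no call. Their log2FC was 0.66 and -0.54 at 8 h and 0.70 and -0.71 at 3 h. *Tgfb3* had 8 to 11 reads at 8 h, 4 to 9 at 3 h and 13 to 14 in vehicle, so neither OxA group overlapped vehicle. A protein-coding gene on the opposite strand, *Ttll5*, overlaps *Tgfb3* over 5149 bases. It had 732 to 922 reads at 8 h, 769 to 797 at 3 h and 905 to 1002 in vehicle. In the main fit *Tgfb2* entered the 8 h comparison only through the 8 h cultures, and *Tgfb3* entered both comparisons with vehicle only through vehicle. *Tgfb2* depended on vehicle replicate 3, its highest vehicle culture with 16 reads. Without that culture its log2FC was 1.37 (adjusted p = 0.0361) at 8 h and 1.41 (adjusted p = 0.0388) at 3 h. These values follow removal of the highest vehicle culture of a gene with few reads, and no rise is read from them. *Bmp4* and *Tgfb1* had 0 to 6 reads per culture and were not tested.

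Among the type I receptors *Acvr1* stood out, with *Tgfbr1* and *Bmpr1a* moving less. ACVR1 is a type I receptor of the BMP branch and *Tgfbr1* the type I receptor of TGF-beta. *Acvr1* had 596, 541 and 595 normalized counts in the 8 h cultures, 1575, 1374 and 1492 in the 3 h cultures and 506, 438 and 482 in vehicle (ENSMUSG00000026836.15, chr2:58388644-58567157, minus strand). Each 3 h culture was above every 8 h culture, and each 8 h culture was above every vehicle culture. The log2FC of *Acvr1* was 0.28 (SE 0.074, adjusted p = 0.00556) at 8 h and 1.65 (SE 0.066, adjusted p = 3.04e-15) at 3 h, a 3.14-fold rise, with -1.37 (SE 0.064, adjusted p = 1.98e-12) for 8 h against 3 h. A protein-coding gene model on the opposite strand, *Gm17409*, overlaps *Acvr1* over 962 bases and had 10 to 23 reads per culture.

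*Tgfbr2*, the type II receptor that binds TGF-beta, rose at both times, and *Tgfbr1* at 3 h. *Tgfbr2* had normalized counts of 452, 507 and 524 in the OxA 8 h cultures, 451, 456 and 456 in the OxA 3 h cultures and 305, 319.9 and 338 in the vehicle cultures. Its OxA groups overlapped each other and both lay above vehicle, with a log2FC of 0.62 (SE 0.082, adjusted p = 2.70e-06) at 8 h and 0.52 (SE 0.078, adjusted p = 1.13e-05) at 3 h, and the difference between the times was not significant (log2FC 0.11, SE 0.075, adjusted p = 0.296). Normalized counts of *Tgfbr1* were 938, 1036 and 986 at 8 h, 1269, 1234 and 1325 at 3 h and 905, 910.4 and 895 in vehicle. For *Tgfbr1* the log2FC was 0.13 (SE 0.057, adjusted p = 0.0999) at 8 h and 0.51 (SE 0.055, adjusted p = 7.79e-08) at 3 h. All 3 of its 8 h cultures lay above vehicle without passing the test, although without 8 h replicate 1 the value was 0.16 with an adjusted p of 0.05, just inside the threshold. *Bmpr1a* had a log2FC of 0.01 (SE 0.045, adjusted p = 0.856) at 8 h and rose by 0.23 (SE 0.045, adjusted p = 0.000215) at 3 h.

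The other tested receptors, *Bmpr2*, *Acvr1b*, *Acvr2a* and *Acvr2b*, had no call in any comparison and a log2FC of -0.10 to 0.09 at 8 h and -0.28 to 0.14 at 3 h. *Bmpr2* passed at 8 h without vehicle replicate 3 (0.15, adjusted p = 0.023), and at 3 h without 3 h replicate 1 (0.20, adjusted p = 0.00121) or vehicle replicate 3 (0.21, adjusted p = 0.00646). *Acvr2a* passed at 3 h without vehicle replicate 1 (-0.19, adjusted p = 0.043). *Bmpr1b*, a BMP type I receptor, had 3, 8 and 6 reads at 8 h, 3, 1 and 7 at 3 h and 9, 6 and 5 in vehicle and was not tested.

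Of the coreceptors, *Cd109* rose at both times and *Tgfbr3* fell at 8 h. *Cd109* (ENSMUSG00000046186.8, chr9:78615546-78716253, plus strand) encodes a membrane-anchored protein that binds TGF-beta and lowers signalling from its receptors, and it had the largest called fold change of the members at 3 h. *Cd109* had 489.6, 469.5 and 402 normalized counts in the 8 h cultures, 1071, 1019 and 812 in the 3 h cultures and 44.2, 35.4 and 40.7 in vehicle. Every 3 h culture exceeded every 8 h culture, and the lowest OxA culture was far above the highest vehicle culture. The rise was 11.3-fold at 8 h (log2FC 3.50, SE 0.13, adjusted p = 1.39e-15) and 24.2-fold at 3 h (log2FC 4.60, SE 0.13, adjusted p = 2.17e-17), and the level was 2.13-fold lower at 8 h than at 3 h (log2FC -1.09, SE 0.098, adjusted p = 1.19e-06). An antisense gene, *4921509A06Rik*, overlaps *Cd109* over 755 bases and had 2 to 12 reads per culture.

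*Tgfbr3* encodes betaglycan, which presents TGF-beta to the type II receptor and binds inhibin. Normalized counts of *Tgfbr3* were 2868, 3040.2 and 2649 at 8 h, 3919.8, 4518 and 4181 at 3 h and 4265, 4490.0 and 3851 in vehicle. The 8 h cultures lay below all others, while the 3 h and vehicle cultures overlapped. Its log2FC was -0.56 (SE 0.059, adjusted p = 1.77e-06) at 8 h, 0.02 (SE 0.06, adjusted p = 0.871) at 3 h and -0.57 (SE 0.057, adjusted p = 1.80e-07) for 8 h against 3 h. *Eng*, which encodes the coreceptor endoglin, had no call, with a log2FC of -0.21 at 8 h and -0.41 at 3 h. In normalized counts no OxA culture of *Eng* reached its lowest vehicle culture, by a narrow margin at 8 h.

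**Figure D3:**
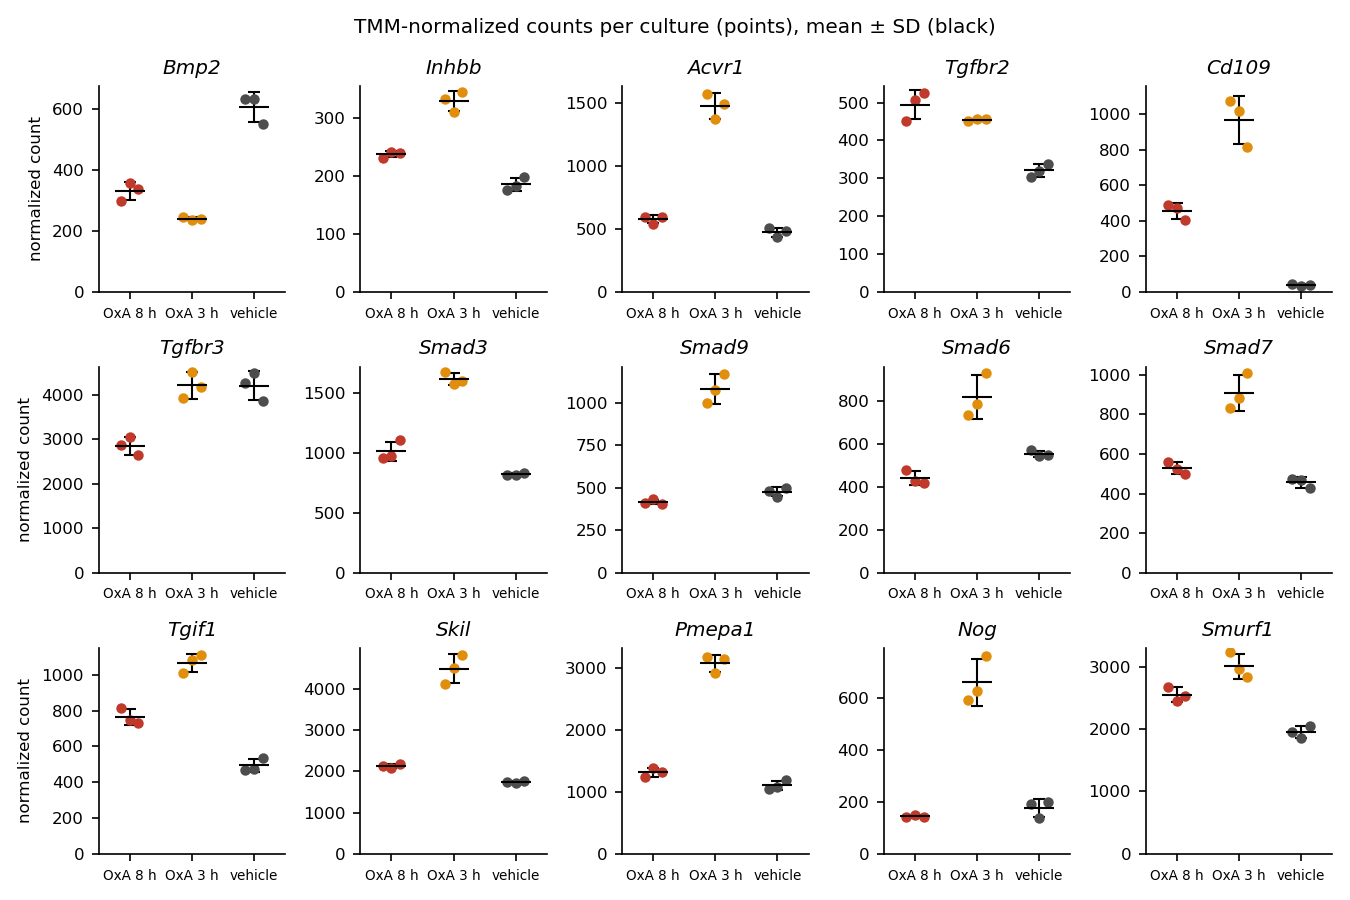
TMM-normalized count (vertical, from 0) of 15 members in each culture, in the OxA 8 h, OxA 3 h and vehicle groups (horizontal), with points for cultures and black lines for the mean ± SD of 3. *Acvr1*, *Smad9*, *Skil*, *Pmepa1* and *Nog* peak in the 3 h cultures, *Bmp2* is lowest there, and *Tgfbr3* is lowest in the 8 h cultures.

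All 6 receptor-activated and common Smads rose at 3 h, and *Smad3*, *Smad4* and *Smad5* also at 8 h. The steepest rise was that of *Smad9* (ENSMUSG00000027796.2, chr3:54755582-54801257, plus strand), a Smad of the BMP branch. *Smad9* had 414, 433 and 407 normalized counts in the 8 h cultures, 996, 1075 and 1171 in the 3 h cultures and 481, 448 and 499.8 in vehicle. Each 3 h culture was above every other culture, and the 8 h cultures lay below the vehicle cultures. The log2FC was -0.19 (SE 0.074, adjusted p = 0.0612) at 8 h, which did not pass, 1.20 (SE 0.071, adjusted p = 3.27e-12) at 3 h, a 2.29-fold rise, and -1.38 (SE 0.071, adjusted p = 5.41e-12) for 8 h against 3 h. With upper-quartile scaling the 8 h value passed (-0.22, adjusted p = 0.0281).

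*Smad3*, which carries TGF-beta and activin signals, followed. *Smad3* had normalized counts of 957, 969 and 1104 in the OxA 8 h cultures, 1669, 1574 and 1593 in the OxA 3 h cultures and 811, 814 and 830.1 in the vehicle cultures. The 3 groups did not overlap. *Smad3* had a log2FC of 0.30 (SE 0.062, adjusted p = 0.000653) at 8 h, 0.99 (SE 0.053, adjusted p = 5.87e-13) at 3 h and -0.68 (SE 0.059, adjusted p = 2.06e-08) for 8 h against 3 h. The remaining Smads changed by less. At 8 h the log2FC was 0.19 (SE 0.045, adjusted p = 0.00252) for *Smad5* and 0.16 (SE 0.043, adjusted p = 0.00715) for *Smad4*, while *Smad1* and *Smad2* had 0.13 (SE 0.062, adjusted p = 0.11) and 0.12 (SE 0.045, adjusted p = 0.0573) and did not pass. At 3 h it was 0.48 (SE 0.063, adjusted p = 1.62e-06) for *Smad1*, 0.38 (SE 0.046, adjusted p = 4.82e-07) for *Smad5*, 0.28 (SE 0.043, adjusted p = 1.59e-05) for *Smad4* and 0.23 (SE 0.045, adjusted p = 0.000283) for *Smad2*.

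The inhibitory Smads, which block receptor-activated Smads and are targets of the pathway, both rose at 3 h, while at 8 h *Smad6* fell and *Smad7* rose. *Smad6* had 477, 429 and 418 normalized counts in the 8 h cultures, 735, 787 and 931 in the 3 h cultures and 570.1, 543 and 550.4 in vehicle. Its 8 h cultures lay below vehicle and its 3 h cultures above it. The log2FC of *Smad6*, which acts mainly on the BMP branch, was -0.33 (SE 0.073, adjusted p = 0.00143) at 8 h, 0.58 (SE 0.078, adjusted p = 3.22e-06) at 3 h and -0.90 (SE 0.084, adjusted p = 7.11e-08) for 8 h against 3 h. *Smad7* had normalized counts of 559, 525 and 499.9 in the OxA 8 h cultures, 832, 883 and 1009 in the OxA 3 h cultures and 473, 470.4 and 426 in the vehicle cultures. For *Smad7*, which acts on both branches, the groups did not overlap in any comparison, and its log2FC was 0.21 (SE 0.074, adjusted p = 0.0358) at 8 h, 1.01 (SE 0.077, adjusted p = 2.71e-10) at 3 h and -0.79 (SE 0.075, adjusted p = 7.68e-08) for 8 h against 3 h. For the 8 h change, without 8 h replicate 1, 8 h replicate 2, vehicle replicate 1 or vehicle replicate 3 it was 0.17 to 0.24 with an adjusted p of 0.0506 to 0.145.

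*Smurf1* and *Smurf2* encode ubiquitin ligases that degrade Smads and, bound to Smad7, the receptors. Normalized counts of *Smurf1* were 2674, 2445 and 2531 at 8 h, 3228, 2956 and 2835 at 3 h and 1951, 1863 and 2043 in vehicle. The 3 groups did not overlap, with 3 h highest and vehicle lowest. *Smurf1* had a log2FC of 0.39 (SE 0.049, adjusted p = 1.65e-06) at 8 h, 0.64 (SE 0.051, adjusted p = 5.96e-10) at 3 h and -0.24 (SE 0.053, adjusted p = 0.00138) for 8 h against 3 h. *Smurf2* changed little, with a log2FC of 0.08 (SE 0.05, adjusted p = 0.231) at 8 h and 0.14 (SE 0.049, adjusted p = 0.0307) at 3 h, and for its 3 h call, without 3 h replicate 2, 3 h replicate 3, vehicle replicate 1 or vehicle replicate 2 it was 0.11 to 0.13 with an adjusted p of 0.0943 to 0.159.

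The nuclear corepressors *Skil* and *Tgif1* rose at both times. *Skil* (ENSMUSG00000027660.16, chr3:31095058-31122577, plus strand) encodes SnoN, which with its relative SKI holds Smad complexes inactive on DNA. *Skil* had 2122, 2086 and 2190.5 normalized counts in the 8 h cultures, 4129, 4510.0 and 4824 in the 3 h cultures and 1754, 1721 and 1760.3 in vehicle. Its 3 groups did not overlap, and the 3 h cultures exceeded every other culture. The log2FC of *Skil* was 0.29 (SE 0.046, adjusted p = 3.40e-05) at 8 h, 1.38 (SE 0.053, adjusted p = 2.87e-15) at 3 h, a 2.6-fold rise, and -1.08 (SE 0.054, adjusted p = 4.99e-12) for 8 h against 3 h. *Ski* had a log2FC of -0.02 (SE 0.044, adjusted p = 0.841) at 8 h, rose by 0.31 (SE 0.044, adjusted p = 4.94e-06) at 3 h and was lower at 8 h than at 3 h (log2FC -0.32, SE 0.045, adjusted p = 1.80e-05).

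*Tgif1* (ENSMUSG00000047407.17, chr17:70844205-70853546, minus strand) encodes a homeodomain corepressor of Smad2 and Smad3. *Tgif1* had normalized counts of 814, 748 and 729 in the OxA 8 h cultures, 1011, 1081 and 1108 in the OxA 3 h cultures and 471, 475 and 535 in the vehicle cultures. The groups were again free of overlap, with a log2FC of 0.63 (SE 0.07, adjusted p = 2.58e-07) at 8 h, 1.13 (SE 0.068, adjusted p = 4.33e-12) at 3 h and -0.49 (SE 0.063, adjusted p = 4.72e-06) for 8 h against 3 h. Its relative *Tgif2* had a log2FC of -0.24 (SE 0.097, adjusted p = 0.0701) at 8 h, and without 8 h replicate 3 it was -0.30 with an adjusted p of 0.0461. At 3 h *Tgif2* fell (log2FC -0.28, SE 0.094, adjusted p = 0.0226), but without 3 h replicate 2, 3 h replicate 3, vehicle replicate 1 or vehicle replicate 3 it was -0.24 to -0.28 with an adjusted p of 0.0523 to 0.0997. A noncoding gene on the opposite strand, *5430405H02Rik*, overlaps *Tgif2* over 11220 bases and had 63 to 86 reads in the 8 h cultures, 56 to 72 in the 3 h cultures and 86 to 104 in vehicle.

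Of the membrane inhibitors, *Pmepa1* (ENSMUSG00000038400.15, chr2:173224458-173276533, minus strand) encodes a protein that sequesters receptor-activated Smads and is induced by TGF-beta. *Pmepa1* had 1244, 1381 and 1327 normalized counts in the 8 h cultures, 3168, 2916 and 3138 in the 3 h cultures and 1049.9, 1082 and 1190.1 in vehicle. Each 3 h culture was above every 8 h and vehicle culture. The log2FC was 0.25 (SE 0.057, adjusted p = 0.00176) at 8 h, 1.49 (SE 0.053, adjusted p = 4.14e-16) at 3 h, a 2.8-fold rise, and -1.23 (SE 0.053, adjusted p = 8.71e-13) for 8 h against 3 h. *Bambi*, a pseudoreceptor that lacks the kinase, had 56.6, 59.4 and 63.6 normalized counts at 8 h, 45.9, 72.6 and 65.1 at 3 h and 33.7, 36.4 and 51.6 in vehicle. Only its 8 h cultures were free of overlap with vehicle. *Bambi* had a log2FC of 0.56 (SE 0.2, adjusted p = 0.0367) at 8 h, and without 8 h replicate 2, 8 h replicate 3, vehicle replicate 1 or vehicle replicate 2 it was 0.44 to 0.57 with an adjusted p of 0.0768 to 0.164. At 3 h it was 0.61 (SE 0.22, adjusted p = 0.0295), and without 3 h replicate 2, 3 h replicate 3, vehicle replicate 1 or vehicle replicate 2 it was 0.47 to 0.56 with an adjusted p of 0.0931 to 0.157.

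*Nog*, which encodes the secreted BMP antagonist noggin, had the largest change between 8 h and 3 h among the called members. *Nog* had 143, 151 and 141 normalized counts in the 8 h cultures, 593, 629 and 763 in the 3 h cultures and 191, 139 and 200.3 in vehicle (ENSMUSG00000048616.4, chr11:89300638-89302332, minus strand). The 3 h cultures stood above all others, and the 8 h and vehicle cultures overlapped. At 8 h the log2FC of *Nog* was -0.28 (SE 0.13, adjusted p = 0.103), and without vehicle replicate 2, the lowest vehicle culture, it was -0.42 with an adjusted p of 0.017. At 3 h it was 1.92 (SE 0.13, adjusted p = 1.68e-08), a 3.78-fold rise, and for 8 h against 3 h it was -2.20 (SE 0.1, adjusted p = 1.69e-12), 4.58-fold lower.

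*Fst*, which encodes the activin antagonist follistatin, had 3, 5 and 7 reads at 8 h, 15, 10 and 32 at 3 h and 9, 4 and 12 in vehicle. Its 3 h cultures were higher than every 8 h culture but overlapped vehicle. The low-count filter kept *Fst* out of the comparison of 8 h with vehicle. The log2FC was 1.31 (SE 0.44, adjusted p = 0.0211) at 3 h, where *Fst* passed the low-count filter only through the 3 h cultures, and without 3 h replicate 3, vehicle replicate 1 or vehicle replicate 2 it was 0.75 to 1.35 with an adjusted p of 0.0519 to 0.256. For 8 h against 3 h it was -2.06 (SE 0.49, adjusted p = 0.0029), and *Fst* entered that test only through the 3 h cultures as well. *Chrd*, which encodes the BMP antagonist chordin, had no call, with a log2FC of -0.23 at 8 h and -0.10 at 3 h. In normalized counts no OxA culture of *Chrd* reached its lowest vehicle culture. The antagonists *Grem1* and *Nbl1* had 0 to 10 reads per culture and were not tested.

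*Ltbp1* (ENSMUSG00000001870.16, chr17:75005568-75392512, plus strand), whose product anchors latent TGF-beta in the matrix, was, like *Inhba*, highest in the 8 h cultures. It had 23, 31 and 21 reads in the 8 h cultures, 15, 13 and 11 in the 3 h cultures and 7, 10 and 9 in vehicle. The 3 groups did not overlap. The log2FC was 1.48 (SE 0.33, adjusted p = 0.00145) at 8 h, 0.72 (SE 0.39, adjusted p = 0.148) at 3 h and 0.76 (SE 0.31, adjusted p = 0.0699) for 8 h against 3 h, and only the 8 h change passed. Vehicle alone was under the low-count filter, so *Ltbp1* entered each comparison with vehicle only through the OxA cultures. *Ltbp3* had no call, with -0.03 at 8 h and 0.05 at 3 h.

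The wider pathway was read from 101 further genes of the count table, listed with earlier results of these data known. Of 57 tested at 8 h, 14 rose and 5 fell (33.3% called, beside 28.4% of all genes). Of 59 tested at 3 h, 28 rose and 7 fell (59.3%, beside 38.9%), and of 58 tested between 8 h and 3 h, 7 were higher and 19 lower at 8 h (44.8%, beside 28.0%). Their median log2FC was 0.07 at 8 h, 0.15 at 3 h and -0.10 between the times. Of 24 further ligands 3 were tested, with 0% called at 8 h, beside 28.4% of all genes, and 33.3% at 3 h, beside 38.9%. *Gdf11* was the 1 with a call (log2FC -0.16, SE 0.057, adjusted p = 0.0255 at 3 h). For this call, without 3 h replicate 2, vehicle replicate 1 or vehicle replicate 3 it was -0.12 to -0.15 with an adjusted p of 0.0926 to 0.133. *Gdf11* averaged 42.8 TPM in vehicle, above *Bmp2*, while the further type I receptor *Acvrl1* averaged 0.0660 TPM there, below *Bmpr1b*. Of 6 further receptors and coreceptors tested, 1 rose and 2 fell at 8 h (50% called, beside 28.4% of all genes). At 3 h 4 rose and 1 fell (83.3%, beside 38.9%). *Acvr1c*, a type I receptor for nodal, had a log2FC of -0.17 at 8 h and 0.78 (SE 0.16, adjusted p = 0.000486) at 3 h. *Rgma*, a BMP coreceptor, had -0.53 (SE 0.084, adjusted p = 2.82e-05) at 8 h and 0.24 (SE 0.075, adjusted p = 0.0144) at 3 h, and for the 3 h call, without 3 h replicate 1, vehicle replicate 1 or vehicle replicate 3 it was 0.20 with an adjusted p of 0.0515 to 0.0794. With upper-quartile scaling neither *Rgma* (adjusted p = 0.0688) nor *Neo1* (0.0819) passed at 3 h. *Tmeff1* had 0.26 (SE 0.08, adjusted p = 0.0153) at 8 h and 0.68 (SE 0.072, adjusted p = 6.04e-08) at 3 h, and for the 8 h call, without 8 h replicate 3 or vehicle replicate 1 it was 0.20 to 0.23 with an adjusted p of 0.0737 to 0.101.

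Of further secreted antagonists, edgeR called 0 of 6 tested at 8 h (1 lower at an unadjusted p under 0.05, and 0 called by DESeq2). Over all genes 28.4% were called at 8 h. At 3 h 28.6% of the antagonists tested were called, beside 38.9% of all genes. At 3 h 1 of 7 rose, *Chrdl1* (log2FC 0.46, SE 0.14, adjusted p = 0.00939), and 1 fell, *Dand5* (log2FC -0.49, SE 0.16, adjusted p = 0.0164). For *Chrdl1*, without 3 h replicate 2, 3 h replicate 3 or vehicle replicate 1 it was 0.38 to 0.39 with an adjusted p of 0.0551 to 0.0588. For *Dand5*, without 3 h replicate 2 or vehicle replicate 3 it was -0.45 to -0.48 with an adjusted p of 0.0502 to 0.056. Among 7 tested genes of ligand latency and activation, 3 rose at 8 h (42.9% called, beside 28.4% of all genes). At 3 h 2 rose (28.6%, beside 38.9%). *Fbn1*, the microfibril protein to which latent complexes bind, had 0.54 (SE 0.084, adjusted p = 2.38e-05) at 8 h and 0.22 (SE 0.09, adjusted p = 0.058) at 3 h. *Itgav*, an integrin chain that releases TGF-beta, had 0.48 (SE 0.043, adjusted p = 8.05e-09) at 8 h and 0.20 (SE 0.044, adjusted p = 0.000691) at 3 h, and *Furin*, the convertase of the precursors, had 0.14 (SE 0.052, adjusted p = 0.0528) at 8 h and 0.49 (SE 0.05, adjusted p = 3.35e-08) at 3 h. Of 19 intracellular regulators, 6 rose at 8 h (31.6% called, beside 28.4% of all genes), and 11 rose and 2 fell at 3 h (68.4%, beside 38.9%). Among these, *Fkbp1a*, whose product holds type I receptors inactive, had 0.42 (SE 0.08, adjusted p = 0.00136) at 8 h, *Lemd3*, a Smad inhibitor of the nuclear envelope, 0.40 (SE 0.07, adjusted p = 7.10e-05) at 3 h, and *Tab1*, a partner of the TAK1 kinase, -0.46 (SE 0.096, adjusted p = 0.000486) at 3 h. Of the 11 rises at 3 h, 4 did not pass with upper-quartile scaling, *Nedd4l* (adjusted p = 0.0568), *Strap* (0.087), *Usp9x* (0.203) and *Map3k7* (0.352), genes named after their values were seen. For *Nedd4l*, without 3 h replicate 3 or vehicle replicate 2 it was 0.18 to 0.21 with an adjusted p of 0.0812 to 0.1. For *Strap*, without vehicle replicate 1 it was 0.13 with an adjusted p of 0.0598. For *Usp9x*, without 3 h replicate 2, 3 h replicate 3, vehicle replicate 1 or vehicle replicate 2 it was 0.10 to 0.12 with an adjusted p of 0.0535 to 0.117. For *Map3k7*, without 3 h replicate 1, 3 h replicate 2, 3 h replicate 3, vehicle replicate 1 or vehicle replicate 3 it was 0.09 to 0.12 with an adjusted p of 0.0564 to 0.199, and DESeq2 gave an adjusted p of 0.0636. At 8 h the rise of *Usp15* was lost in the same way, since without 8 h replicate 3 it was 0.16 with an adjusted p of 0.0592.

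Known target genes were listed for each branch, with earlier results of these data known. The paper had already reported rises of *Id1*, *Id3*, *Id4*, *Klf10* and *Junb* at 3 h from these libraries. The shares called thus describe the lists and are no test of a target response. Among BMP targets, 2 of 7 tested fell at 8 h (28.6% called, beside 28.4% of all genes), while 6 of 8 rose and 1 fell at 3 h (87.5%, beside 38.9%). The inhibitors of DNA binding *Id1*, *Id3* and *Id4* had a log2FC of 0.33 (SE 0.17, adjusted p = 0.243), 0.12 (SE 0.1, adjusted p = 0.428) and 0.40 (SE 0.22, adjusted p = 0.174) at 8 h, none of which passed. At 3 h the same genes had 1.16 (SE 0.089, adjusted p = 6.95e-07), 1.36 (SE 0.092, adjusted p = 8.89e-11) and 1.56 (SE 0.19, adjusted p = 5.01e-07), a rise of 2.23-, 2.56- and 2.96-fold. All 3 were lower at 8 h than at 3 h (-0.83, -1.23 and -1.15). *Id2*, named after its values were seen, had -0.31 (SE 0.08, adjusted p = 0.00541) at 8 h, where it was lower than vehicle, and 0.71 (SE 0.08, adjusted p = 2.72e-07) at 3 h, and was 2.01-fold lower at 8 h than at 3 h (SE 0.083 on the log2 scale, adjusted p = 1.03e-08). For its fall at 8 h, without 8 h replicate 2 it was -0.24 with an adjusted p of 0.0502. The other fall at 8 h was that of *Hey1* (log2FC -0.21, SE 0.074, adjusted p = 0.0402), which DESeq2 did not call (adjusted p = 0.0985), nor did the fit of all 9 samples (0.0717), and without 8 h replicate 1, 8 h replicate 3, vehicle replicate 2 or vehicle replicate 3 it was -0.15 to -0.21 with an adjusted p of 0.0816 to 0.201. Among TGF-beta targets, 4 of 9 tested rose, 1 fell and 4 had no call at each time. These calls were 55.6% of those tested, beside 28.4% of all genes at 8 h and 38.9% at 3 h. The target that fell at 8 h (log2FC -0.34, SE 0.09, adjusted p = 0.00616) was not the one that fell at 3 h. The fall at 3 h was the larger (log2FC -1.32, SE 0.29, adjusted p = 0.000789). *Klf10*, an early TGF-beta response gene that encodes a zinc finger protein, had a log2FC of 0.55 (SE 0.083, adjusted p = 6.38e-05) at 8 h and 1.64 (SE 0.092, adjusted p = 1.09e-08) at 3 h. *Tsc22d1* had 1.05 (SE 0.11, adjusted p = 0.000589) at 8 h and 1.71 (SE 0.072, adjusted p = 6.71e-10) at 3 h, and *Junb*, an AP-1 subunit that many other stimuli also induce, had 0.71 (SE 0.11, adjusted p = 0.000337) at 8 h and 1.90 (SE 0.057, adjusted p = 1.24e-17) at 3 h. Whether these targets moved through Smads was not measured.

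**Figure D4:**
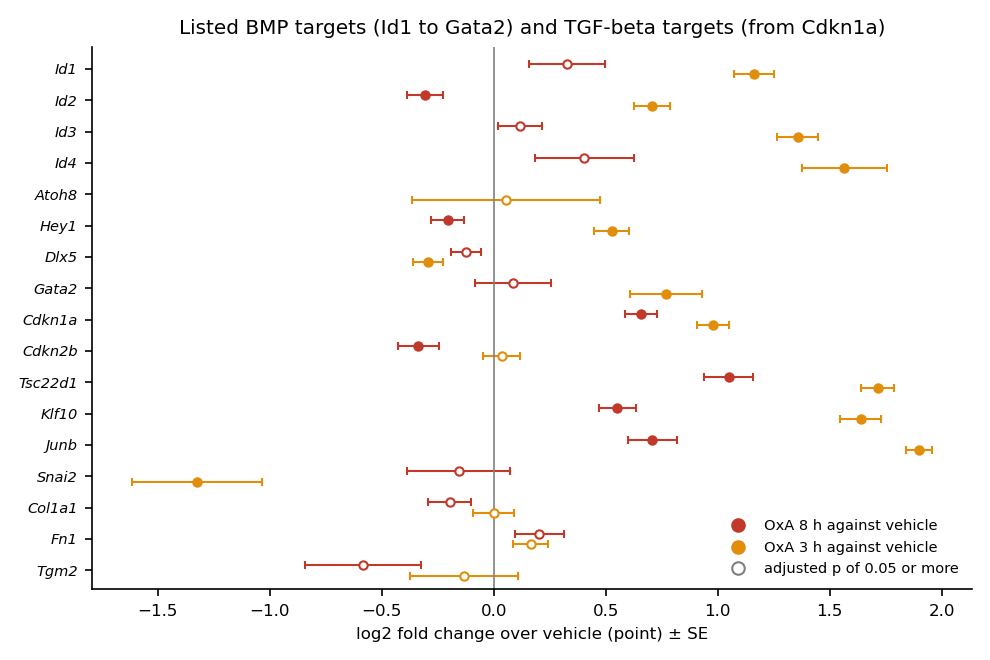
Log2 fold change over vehicle (horizontal, point ± SE) of the listed BMP and TGF-beta target genes that were tested (vertical), OxA 8 h above OxA 3 h, with filled points at an adjusted p under 0.05. *Id1*, *Id3* and *Id4* are filled at 3 h and open at 8 h, while *Klf10*, *Tsc22d1* and *Junb* are filled at both times.

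Across all 43 members, 16 overlap a gene on the opposite strand in the GENCODE annotation, 7 of them a protein-coding gene, and 11 have such a gene in the count table. The libraries were stranded, but the strand setting of the counting is not given in the sources used here, so reads of such pairs may not have been told apart.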

How the data were processed

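RNA was sequenced from 9 cultures of GT1-7-OX1 cells, 3 per group. The authors trimmed the reads with Trimmomatic, aligned them to mouse genome mm10 with STAR (2.5.2a) and deposited raw read counts per gene symbol from HTSeq-count (0.6.0). The annotation and strand setting of the counting are not given in the sources used here. The deposited TPM values sum to the same total in each sample and served for levels between genes, with gene lengths not given in those sources. The deposited normalized counts were not used, and neither were the authors' comparison tables, which hold fold changes and p-values. Samples were grouped by their labels.

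Each comparison was fitted on the raw counts of the 2 groups compared with edgeR (4.0.16, limma 3.58.1, R 4.3.3), using filterByExpr, TMM scaling and the robust quasi-likelihood test. P-values were adjusted over all genes kept by the Benjamini-Hochberg method, and calls required an adjusted p under 0.05. The SE of a log2 fold change was derived from the test statistic, and all fold changes carry the group named last as denominator. Libraries of 16217786 to 20445364 assigned reads set the precision, so that members with few reads have wide errors. The fit was tested on simulated data.

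Alternatives were relative log expression and upper-quartile scaling, DESeq2 (1.42.0), no low-count filter, a stricter one (1 CPM in 3 samples), all 9 samples in 1 fit, the replicate number as a block, and leaving out each replicate. The members and all lists were chosen with earlier results of these data known. By rule, members called in any comparison with an absolute log2 fold change of 0.5 or more there are given culture by culture, and at most 3 called genes with the largest change are named per further list. 1 gene of the further lists is left out and is not reported here. Gene positions are from GENCODE on GRCm38 and promoter windows from RefSeq on GRCm38.p6, counted from 1.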

Additional observations from a re-analysis of the deposited data

Results flagged for a closer look

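The changes over vehicle differed between 8 h and 3 h for 22 members by the direct test of the 2 OxA groups (edgeR, adjusted p under 0.05), and values here are log2 fold changes of 8 h over 3 h. Only *Bmp2* (0.45) and *Inhba* (0.88) were higher at 8 h.

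Among ligands and receptors, *Bmp7* (-0.81), *Inhbb* (-0.48), *Acvr1* (-1.37), *Tgfbr1* (-0.38), *Bmpr1a* (-0.21), *Tgfbr3* (-0.57) and *Cd109* (-1.09) were lower at 8 h. Smads that were lower at 8 h comprised *Smad1* (-0.34), *Smad3* (-0.68), *Smad5* (-0.18), *Smad9* (-1.38), *Smad6* (-0.90) and *Smad7* (-0.79). The regulators *Smurf1* (-0.24), *Tgif1* (-0.49), *Ski* (-0.32), *Skil* (-1.08) and *Pmepa1* (-1.23) and the antagonists *Nog* (-2.20) and *Fst* (-2.06) were lower too. *Inhba* entered this test only through the 8 h cultures and *Fst* only through the 3 h cultures. The 3 h cultures had no vehicle of their own time, and the part of time in medium in these differences was not tested.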

How the results depend on the processing

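Of the called members, 15 of 18 at 8 h, 21 of 25 at 3 h and 20 of 22 for 8 h against 3 h passed under every alternative that tested them, and 0 changed sign. Calls lost without 1 library are given beside each gene. DESeq2 did not call *Smad7* (adjusted p = 0.0862) or *Bambi* (0.129) at 8 h, *Bambi* (0.0987), *Fst* (0.0714), *Smurf2* (0.0615) or *Tgif2* (0.0836) at 3 h, or *Bmp7* (0.107) or *Inhba* (0.157) for 8 h against 3 h. With upper-quartile scaling *Smad7* at 8 h (adjusted p = 0.0702) and *Smurf2* at 3 h (0.229) did not pass. Members called lower at 8 h numbered 5 with upper-quartile scaling and 5 with the replicate block, in place of 3. Those called lower at 3 h numbered 1 with DESeq2 and 1 to 2 when leaving out 1 replicate, in place of 2. Those higher at 8 h than at 3 h numbered 1 with DESeq2, without a low-count filter and with all 9 samples in 1 fit, and 1 to 2 when leaving out 1 replicate, in place of 2. The cause was not tested.

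Every reversal concerned a member with no call in that comparison. With upper-quartile scaling *Bmpr1a* had a log2FC of -0.016 at 8 h, and *Acvr1b* had -0.044, *Tgfbr3* -0.045 and *Ltbp3* -0.0073 at 3 h. Leaving out 1 replicate gave -0.11 to 0.021 for *Acvr2a*, -0.14 to 0.019 for *Acvr2b*, -0.30 to 0.28 for *Ltbp3*, -0.015 to 0.042 for *Bmpr1a* and -0.032 to 0.013 for *Ski* at 8 h. At 3 h it gave -0.046 to 0.060 for *Acvr1b*, -0.049 to 0.070 for *Tgfbr3* and -0.28 to 0.36 for *Ltbp3*. For 8 h against 3 h the values ran from -0.25 to 0.33 for *Tgfb2*, -0.026 to 0.12 for *Tgif2* and -0.21 to 0.082 for *Bambi*.

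The shared replicate numbers were not taken to pair the cultures. Over 15768 genes, deviations of same-numbered cultures correlated at 0.111, 0.0589 and 0.128 for 8 h and vehicle, 0.103, 0.00945 and 0.0364 for 3 h and vehicle, and 0.161, 0.0489 and 0.0244 for 8 h and 3 h. Each culture correlated best with its own number between 8 h and vehicle, but not in the other comparisons. With the replicate block 19 members rose and 5 fell at 8 h, 24 rose and 3 fell at 3 h, and 2 were higher and 22 lower at 8 h than at 3 h. Relative to the same fit without it, the block added calls at 8 h for *Bmpr2* (adjusted p = 0.0347), *Tgfbr1* (0.0465), *Smad1* (0.048), *Smad2* (0.0161), *Smad9* (0.0353) and *Tgif2* (0.0291). It added *Bmpr2* (0.00557) and *Acvr2a* (0.0334) at 3 h, and *Smad2* (0.0461) and *Smad4* (0.0191) for 8 h against 3 h. Some of these also passed under other alternatives. With upper-quartile scaling *Smad9* (adjusted p = 0.0281) and *Tgif2* (0.0382) passed at 8 h. With all 9 samples in 1 fit *Smad2* (0.0409) passed at 8 h and *Smad4* (0.0479) for 8 h against 3 h. Without a low-count filter *Bmpr2* (0.0116) passed at 3 h. Depth limited *Inhba*, *Ltbp1*, *Fst*, *Bmp7* and the untested members, which had few reads per culture.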

Other observations

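Members below the low-count filter were read from a fit without it, adjusted over all genes with a count. At 8 h the log2FC was -0.71 (SE 0.79, adjusted p = 0.6) for *Bmp4*, -0.75 (SE 0.92, adjusted p = 0.623) for *Tgfb1* and -0.26 (SE 0.57, adjusted p = 0.819) for *Bmpr1b*. At 3 h *Bmp4* had -1.86 (SE 1, adjusted p = 0.172), *Tgfb1* 0.39 (SE 0.77, adjusted p = 0.772) and *Bmpr1b* -0.71 (SE 0.65, adjusted p = 0.512). None of these ligand and receptor values passed edgeR's quasi-likelihood test. *Inhba* at 3 h was the 1 member of those filtered out that passed, at 4.03 (SE 0.82, adjusted p = 2.02e-06), a fitted value that depends on the prior count, since vehicle held 2 reads and nearly all of its reads came from the 3 h cultures.

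The antagonists had equally wide errors. *Grem1*, which encodes the BMP antagonist gremlin, had 0.32 (SE 0.62, adjusted p = 0.794) at 8 h and 0.84 (SE 0.59, adjusted p = 0.353) at 3 h. *Nbl1*, another secreted BMP antagonist, had -0.12 (SE 0.61, adjusted p = 0.933) at 8 h and -2.23 (SE 0.94, adjusted p = 0.0515) at 3 h, and *Fst* had -0.75 (SE 0.56, adjusted p = 0.444) at 8 h.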
